A study of Mus musculus with 28 samples.

Results

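The genes described here are 33 mouse genes that bring fatty acids into the heart muscle cell and oxidise them in its mitochondria. They were taken by symbol from a table of 39152 genes, and all 33 were found there and passed the filter on low counts in both ventricles. The table came from bulk RNA sequencing of 28 pieces of left ventricle (LV) or right ventricle (RV) from 16 C57BL6 mice, of which 12 gave both ventricles. All mice carried floxed Pkp2, the gene of the desmosome protein plakophilin-2, on both alleles. The Pkp2-cKO mice (cKO) also carried αMyHC-Cre-ER(T2), a Cre that works only in cardiomyocytes and only after tamoxifen. They were given tamoxifen to delete Pkp2, and received HBSS, the buffer used as vehicle (4 LV and 4 RV libraries). The 3E13 and 6E13 groups were Pkp2-cKO mice that received TN-401, an AAV9 vector with human PKP2, as a single retro-orbital dose of 3E13 or 6E13 vector genomes per kg, 1 week before tamoxifen (4 LV and 2 RV libraries at 3E13, 3 LV and 3 RV libraries at 6E13). The WT group were Cre-negative littermates with the floxed alleles that received HBSS (5 LV and 3 RV libraries). The paper's methods do not say whether WT mice were given tamoxifen. The series title reads about 10 weeks, and the labels give no collection time per library. The paper describes a single collection time after induction for these mice. In other experiments of the paper, vehicle-treated cKO mice did not live to that time, and in its long study their hearts were taken earlier than those of other groups. Whether the cKO hearts here came from survivors or were collected earlier is not stated. The part of survival or collection time in the cKO comparisons below was not tested.

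The adult heart draws most of its energy from long-chain fatty acids. Lipoprotein lipase (Lpl) frees them from circulating triglyceride, Cd36 and Slc27a1 (FATP1) help them across the cell membrane, and Fabp3 binds them in the cytosol, while Plin5 and Pnpla2 coat and open the lipid droplets that store the surplus. Acsl1 couples them to coenzyme A. The carnitine shuttle then moves them into the mitochondrion through the outer-membrane enzyme CPT1 (the liver-type isoform Cpt1a and the muscle-type isoform Cpt1b), the carrier Slc25a20 and the inner-membrane enzyme Cpt2, and Mlycd removes malonyl-CoA, the inhibitor of CPT1. Acyl-CoA dehydrogenases, hydratases, hydroxyacyl-CoA dehydrogenases and thiolases shorten the chain in turns of beta-oxidation, and electrons pass through the flavoprotein of Etfa and Etfb and its dehydrogenase Etfdh to the respiratory chain. Thioesterases (Acot1, Acot2, Acot13) release free fatty acid from acyl-CoA. Ppara encodes the nuclear receptor best known for switching on this programme, Pdk4 holds back glucose oxidation, and Ucp3 is a mitochondrial inner-membrane carrier that PPAR agonists raise.

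The libraries held between 19364737 and 39381144 counts. Human PKP2 had 0 counts in all 16 libraries of mice without vector and at least 3181 counts in each treated library. In LV it had 8518, 3181, 7449 and 8331 counts at 3E13 (animals 181, 182, 252 and 253). At 6E13 it had 19242, 7611 and 8183 counts in LV (animals 250, 631 and 645). RV had 6952 and 6918 counts at 3E13 (animals 181 and 253) and 14661, 8264 and 6679 counts at 6E13. These unscaled counts overlapped between the doses in both ventricles. Mouse Pkp2 lay between 29.2 and 55.2 CPM (counts scaled to a common library total) in cKO LV, against 103 to 121 CPM in WT LV. The groups also differed in genes outside the pathway. Transcripts of the mitochondrial genome took 18.2 to 26.7% of counts in cKO LV, against 33.5 to 37.0% in WT LV, and 15 to 23.2% in cKO RV, against 35.7 to 39.6% in WT RV, with animal 177 lowest in both ventricles. Their part in the cKO values below, and that of the cell markers that follow, was not tested. Fibroblast marker genes summed to between 2779 and 7464 CPM in cKO LV, against 642.5 to 813.1 CPM in WT LV, and 8 of 9 were called higher (9 of 9 in RV, where they summed to between 5461 and 13670 CPM in cKO and 768.7 to 862.5 CPM in WT). Macrophage markers were called higher for 7 of 8 in each ventricle. A reference list of 14 other cardiomyocyte genes summed to between 35530 and 76540 CPM in cKO LV, against 90140 to 97210 CPM in WT LV, and to between 33510 and 63310 CPM in cKO RV, against 87700 to 98000 CPM in WT RV. In bulk tissue, fewer cardiomyocytes and less RNA of a gene per cardiomyocyte cannot be told apart. Adipocyte markers, 8 in all, summed to at most 2.543 CPM in every LV library. In RV they summed to 26.36 CPM in cKO animal 180, 2.525 CPM in cKO animal 257 and at most 0.3417 CPM in the other two cKO animals, against 0 to 0.7001 CPM in WT.

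In healthy ventricle 3 of the 4 uptake genes stood highest, and Slc27a1 was near the bottom at 3.03 ± 0.832 TPM in WT LV. On a scale corrected for transcript length (TPM), Fabp3 was the most abundant member in WT LV at 1671 ± 181 TPM (SD, n = 5), and Lpl (808 ± 81.8 TPM) and Cd36 (439.9 ± 36.8 TPM) came after it. Hadhb and Acadl led the beta-oxidation enzymes at 414 ± 31.03 and 334 ± 7.83 TPM. The muscle-type isoform Cpt1b stood at 117 ± 10.8 TPM and the liver-type isoform Cpt1a at 9.89 ± 1.43 TPM. Ppara, at 11.7 ± 1.71 TPM, and the thioesterase Acot1, at 1.17 ± 0.525 TPM, were among the least abundant members. WT RV had the same first 5 members in the same order, with Fabp3 at 1554 ± 255 TPM (SD, n = 3).

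Some members were listed at 0 counts in libraries where related genes were abundant. Eci1, an isomerase for unsaturated chains, was listed at 0 in 21 of the 28 libraries and had between 88 and 478 counts in the rest. Slc27a1 was listed at 0 in 3 libraries (1 of cKO RV and both of 3E13 RV) and had at least 64 counts elsewhere, and Acot1 was listed at 0 in both 3E13 RV libraries. These were estimated counts that share reads among transcripts, so an estimate of 0 need not mean that the transcript was missing, and no fold change is given against such a group.

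The first question was what loss of Pkp2 did to the pathway. Most members were lower in cKO than in WT in both ventricles. The enzymes inside the mitochondrion, which make up most of the list, accounted for most of the calls. In LV, 19 of 33 members were called lower, 1 (Cpt1a) higher and 13 not called, where 16.1% of all 16410 genes tested were called lower and 19.7% higher. In RV, 25 of 33 were called lower, 0 higher and 8 not called, where 17.6% of all 17307 genes were called lower and 19.8% higher. A call is an adjusted p under 0.05 in edgeR's quasi-likelihood F test, with Benjamini-Hochberg adjustment over all genes. The median log2 fold change of the members was -0.85 in LV and -1.29 in RV, where the median over all genes was 0.05 and 0.06. Called members were 1.56 to 2.82 times lower in LV and 1.81 to 4.36 times lower in RV. All cKO libraries lay below all WT libraries for 18 members in LV and 24 in RV, of which 23 were called in RV and Cd36 was not. Of all genes tested, 14.4% in LV and 19.1% in RV lay below WT in the same way. Scaled to the cardiomyocyte reference list, 11 members were lower and 3 higher in LV, where 2.82% of all genes were lower and 44.3% higher. In RV 17 members were lower and 1 higher under this scaling, where 2.83% of all genes were lower and 48.7% higher. The member medians were then -0.40 and -0.56, where this scaling moved the median of all genes to 0.74 and 0.94.

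**Figure D1:**
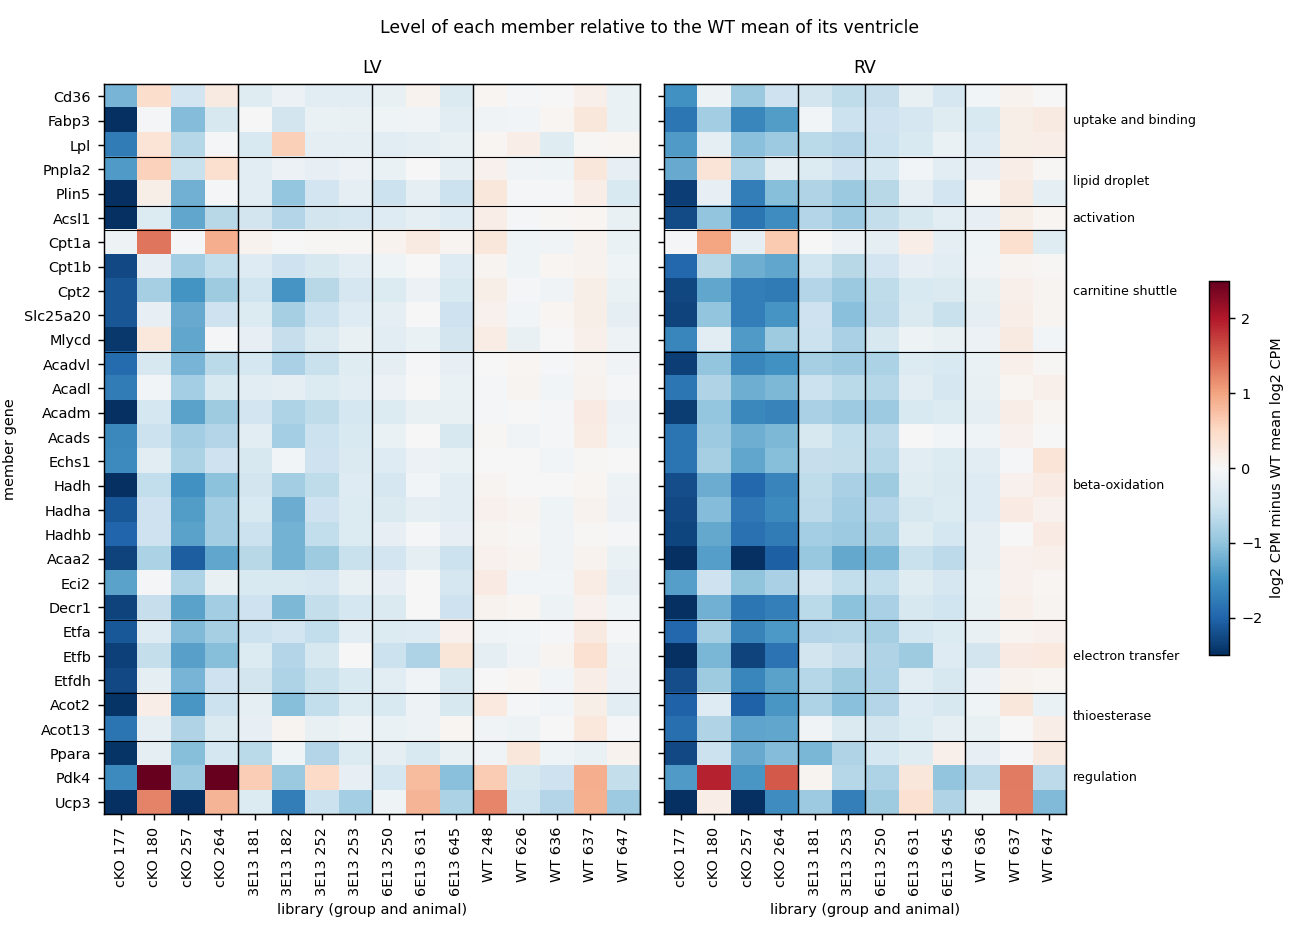
Level of 30 members in every library, as log2 CPM minus the mean log2 CPM of the WT libraries of that ventricle (colour, red higher, blue lower, cut at 2.5 on either side), with libraries in columns by group and animal and genes in rows by step; the 3 members with a listed 0 are left out. The cKO columns are mostly blue, deepest in animal 177 and palest in animal 180, and the Cpt1a and Pdk4 rows are red in cKO animals 180 and 264.

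The cKO hearts differed among themselves. Over the 30 members without a listed 0, the median difference from the WT mean was -2.14, -0.22, -1.16 and -0.52 on the log2 scale in the LV of cKO animals 177, 180, 257 and 264, against -0.14 to 0.14 in the WT LV libraries. In RV it was -2.12, -0.83, -1.63 and -1.37 in the same animals, against -0.19 to 0.13 in WT. Animal 177 was lowest and animal 180 highest in both ventricles. The same 4 animals, in every list of values below, come in the order 177, 180, 257 and 264, and the animals of the other groups also by rising number.

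**Figure D2:**
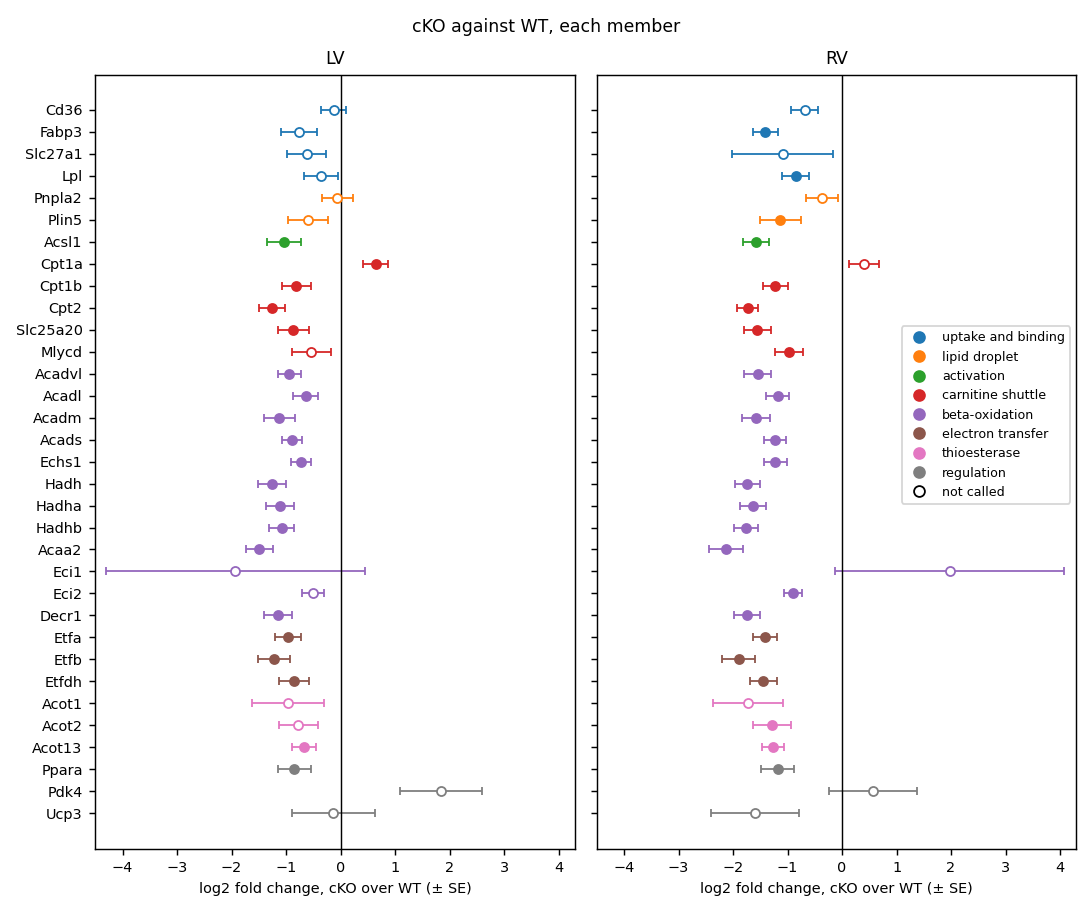
Log2 fold change of each member in cKO over WT with its standard error (bars), LV left and RV right; colours mark the step and open circles mark members that were not called. Beta-oxidation and electron transfer members lie left of 0 in both ventricles apart from Eci1, which was listed at 0 in 21 libraries and has the widest bars, and Cpt1a and Pdk4 lie right of 0.

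Of the 4 uptake and binding genes, none passed the test in LV (median log2 fold change -0.49), and 2, Fabp3 and Lpl, were called lower in RV (median -0.97). The difference between ventricles was not called for any of the 4 (adjusted p between 0.202 and 0.834). Fabp3 had 264, 1495, 724 and 1168 CPM in cKO LV, against 1454, 1461, 1580, 1862 and 1369 CPM in WT LV. Its log2 fold change there was -0.76 ± 0.33 (SE; adjusted p = 0.0816), with animal 180 inside the WT range and animal 177 far below it. Its RV values were 472, 907, 532 and 629.9 CPM in cKO, against 1274, 1840 and 1941 CPM in WT, with no overlap and a log2 fold change of -1.41 ± 0.23 (adjusted p = 0.000696). Slc27a1, a fatty acid transport protein, had 3.14, 10.4, 3.30 and 9.85 CPM in cKO LV, against 6.57, 12.1, 10.1, 8.91 and 13.8 CPM in WT LV. It had 0, 8.74, 5.41 and 2.47 CPM in cKO RV, against 6.59, 9.82 and 10.01 CPM in WT RV, and neither ventricle passed the test. Cd36, the main fatty acid translocase of the heart, was not called in LV (-0.12 ± 0.23) or RV (-0.69 ± 0.26; adjusted p = 0.0518), although its cKO RV libraries all lay below WT. Lpl fell in RV by 0.85 on the log2 scale (SE 0.25, adjusted p = 0.0196).

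Lipid droplet genes were not called in LV, and Plin5 was called lower in RV. Plin5, the droplet coat protein of oxidative tissue, had 7.24, 32.3, 11.3 and 17.7 CPM in cKO RV, against 37.8, 43.5 and 31.3 CPM in WT RV (-1.13 ± 0.38, adjusted p = 0.0331), and animal 180 reached the WT range. In LV it had 6.05, 37.8, 14.9 and 33.1 CPM in cKO, against 41.7, 33.3, 33.4, 38.6 and 26.5 CPM in WT. Pnpla2, the adipose triglyceride lipase that opens the droplet, had 71.2, 282, 129 and 251 CPM in cKO LV, against 203, 178, 176, 231 and 164 CPM in WT LV. The RV libraries had 89.2, 267, 125 and 183 CPM in cKO, against 185, 239 and 218 CPM in WT. The cKO libraries of Pnpla2 fell on both sides of the WT range in each ventricle, and its log2 fold changes were -0.06 ± 0.28 in LV and -0.37 ± 0.29 in RV.

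Acsl1, which activates long-chain fatty acids, was lower in every cKO library than in any WT library. It had 119, 619.9, 321 and 489 CPM in cKO LV, against 885, 760.5, 806, 822 and 693 CPM in WT LV (-1.03 ± 0.31, adjusted p = 0.0159). In RV the values were 180.1, 432, 239.6 and 290.1 CPM in cKO, against 742, 941 and 883 CPM in WT (-1.58 ± 0.24, adjusted p = 0.000399).

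In the carnitine shuttle of LV the isoforms of CPT1 went opposite ways. Cpt1b, Cpt2 and Slc25a20 were called lower in both ventricles, Mlycd in RV only by its own test (the difference between ventricles was not called), and Cpt1a was called higher in LV. Cpt2, which regenerates acyl-CoA inside the mitochondrion, had 28.2, 69.4, 44.1 and 66.5 CPM in cKO LV, against 136, 122, 116, 137 and 109.9 CPM in WT LV (-1.25 ± 0.24, adjusted p = 0.00101). RV tissue had 29.4, 57.9, 42.7 and 41.8 CPM in cKO, against 124, 156 and 148 CPM in WT (-1.73 ± 0.19, adjusted p = 5.02e-05). The groups did not overlap in either ventricle. Slc25a20, the carnitine-acylcarnitine carrier, had 23.02, 87.96, 42.6 and 71.7 CPM in cKO LV, against 110, 97.1, 106, 113 and 86.7 CPM in WT LV (-0.86 ± 0.28, adjusted p = 0.0233), and only animal 180 reached the WT range. In RV it had 24.02, 60.6, 36.1 and 43.5 CPM in cKO, against 102, 134 and 125 CPM in WT, with no overlap (-1.56 ± 0.25, adjusted p = 0.000574).

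Cpt1b, the isoform that muscle uses, had 91.7, 379, 239 and 286 CPM in cKO LV, against 459, 406, 452, 461 and 406 CPM in WT LV (-0.81 ± 0.26, adjusted p = 0.0249). Its RV values were 121, 294, 204 and 193 CPM in cKO, against 444, 494 and 485 CPM in WT (-1.22 ± 0.22, adjusted p = 0.00131). Every cKO library lay below every WT library of its ventricle. Cpt1a, the isoform of liver and of many non-muscle cells, had 49.3, 136, 52.01 and 100.5 CPM in cKO LV, against 65.1, 49.96, 50.3, 56.96 and 47.7 CPM in WT LV (0.65 ± 0.23, adjusted p = 0.0385). Animals 180 and 264 lay above WT and animals 177 and 257 at the WT level. The call was lost without cKO animal 180 (log2 fold change 0.31, adjusted p = 0.205), without cKO animal 264 (adjusted p = 0.112) and without WT animal 626, 636, 637 or 647 (adjusted p between 0.0602 and 0.0821). In RV Cpt1a had 66.1, 134, 57.1 and 107 CPM in cKO, against 62.9, 89.05 and 54.8 CPM in WT, and was not called (0.40 ± 0.28).

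The ratio of Cpt1a to Cpt1b within a library does not depend on how libraries are scaled. Its log2 value was -0.90, -1.48, -2.20 and -1.51 in cKO LV, against -2.82, -3.02, -3.17, -3.02 and -3.09 in WT LV. It averaged -1.52 ± 0.54 in cKO LV and -3.02 ± 0.13 in WT LV (SD, n = 4 and n = 5), a difference of 1.5. In RV the log2 ratio was -0.87, -1.13, -1.84 and -0.86 in cKO, against -2.82, -2.47 and -3.15 in WT, a difference of 1.64. The groups did not overlap in either ventricle. The pair was chosen with the difference of each isoform known, so the ratio is a description and carries no test. In treated hearts the log2 ratio lay between -2.74 and -2.51 at 3E13 and between -2.82 and -2.63 at 6E13 in LV, and at -2.30 and -2.26 at 3E13 and between -2.76 and -2.44 at 6E13 in RV. Fibroblast and macrophage markers were higher in the same cKO libraries (above), and their part in the ratio was not tested.

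**Figure D3:**
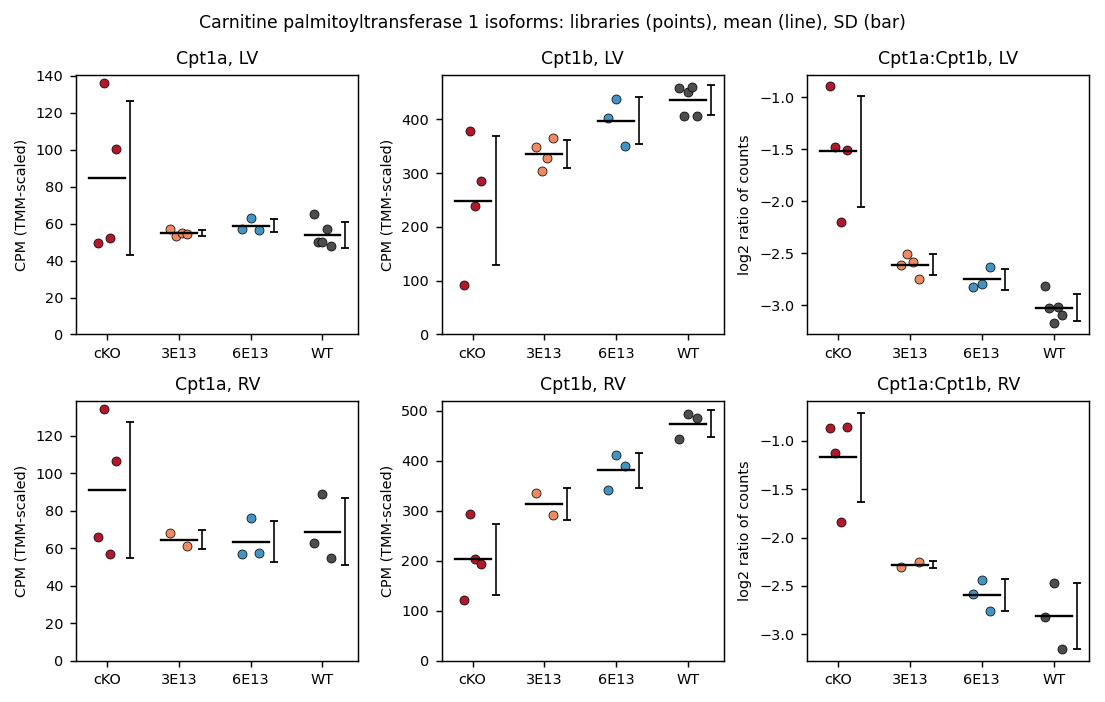
Cpt1a and Cpt1b levels in CPM and the log2 ratio of their counts in each library (points), with the group mean (line) and SD (bar), LV above and RV below. The ratio of all 4 cKO libraries lies above that of all WT libraries in each ventricle, and the treated libraries lie between the cKO and WT means.

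Beta-oxidation, the step with the most members, also carried the most calls. In LV 10 of its 12 members were lower (median log2 fold change -1.10), and in RV 11 of 12 (-1.57). By share, electron transfer stood higher, with 3 of 3 in each ventricle. Only Eci1 and Eci2 were not called in LV, and only Eci1 in RV. The 4 acyl-CoA dehydrogenases (Acadvl, Acadl, Acadm and Acads, named for very long, long, medium and short chains) were all called lower in both ventricles, as were Echs1, Hadh, Hadha, Hadhb, Acaa2 and Decr1. The Acaa2 gene, for the thiolase that ends each turn of the cycle, had the largest fall of all called members in both ventricles. Acaa2 had 56.9, 164, 67.9 and 116 CPM in cKO LV, against 306, 297, 267, 302 and 255 CPM in WT LV (-1.49 ± 0.25, adjusted p = 0.00035). The RV libraries had 41.7, 135, 61.4 and 85.1 CPM in cKO, against 299, 375 and 383 CPM in WT (-2.12 ± 0.32, adjusted p = 0.000359). No cKO library reached the lowest WT library in either ventricle. Eci1 was listed at 3.61, 0, 0 and 0 CPM in cKO LV, against 17.8, 0, 0, 0 and 0 CPM in WT LV, and at 14.5, 7.97, 0 and 0 CPM in cKO RV, against 4.33, 0 and 0 CPM in WT RV. No direction can be read from so few libraries above 0.

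Hadha and Hadhb encode the alpha and beta subunits of the mitochondrial trifunctional protein, which carries out the last steps of each turn for long chains. They were singled out after their values were seen, because their genes neighbour each other on opposite strands of chromosome 5. Hadha had 209.8, 638, 345 and 499 CPM in cKO LV, against 978, 953, 849.5, 963 and 826 CPM in WT LV (-1.11 ± 0.25). Hadhb had 186, 511, 292 and 404 CPM in cKO LV, against 688 to 771 CPM in the 5 WT LV libraries (-1.08 ± 0.23). In both genes the 4 cKO animals kept the same order, with 177 lowest and 180 highest. The median over the members without a listed 0 had that order too (above), so it was not particular to this pair. In RV Hadha had 201, 456, 279 and 319 CPM in cKO, against 774, 1108 and 1044 CPM in WT (-1.64 ± 0.24). Hadhb had 182, 366, 244 and 268 CPM in cKO RV, against 768, 902 and 1032 CPM in WT RV (-1.76 ± 0.22). No cKO library of either gene overlapped WT. In RefSeq's annotation of GRCm38.p6 the start of Hadha, on the minus strand, is at position 30154980 and the start of Hadhb, on the plus strand, at 30155253, with 272 bases between them. The 250 bases before the Hadhb start (chr5:30155003-30155252, plus strand, 58.8% G and C, where the median over all promoters is 52.4%) are shown because they lie between both starts in that annotation, and 228 of them also fall in the promoter window of Hadha. In the GENCODE annotation of GRCm39, the build of the counts, the outermost ends of the genes overlap, so there the stretch does not lie between the starts. The paper names a stranded library kit, and how reads in the overlap were assigned was not tested.
Hadhb: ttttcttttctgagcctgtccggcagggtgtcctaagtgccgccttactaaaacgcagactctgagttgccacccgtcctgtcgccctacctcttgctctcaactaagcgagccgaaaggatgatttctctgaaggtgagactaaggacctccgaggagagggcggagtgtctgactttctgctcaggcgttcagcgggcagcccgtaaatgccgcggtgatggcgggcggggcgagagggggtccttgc

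Electron transfer genes fell together, with 3 of 3 lower in each ventricle (median log2 fold change -0.96 in LV and -1.44 in RV). Etfb, the beta subunit of the electron transfer flavoprotein, had 24, 80.8, 47.6 and 58.4 CPM in cKO LV, against 102, 114, 128, 159 and 111 CPM in WT LV (-1.22 ± 0.29, adjusted p = 0.00446). RV tissue had 27.4, 73.6, 32.5 and 45.3 CPM in cKO, against 119, 187 and 193 CPM in WT (-1.90 ± 0.30, adjusted p = 0.000539). The alpha subunit, Etfa, behaved alike in direction. Etfa had 44.5, 156, 90.9 and 109 CPM in cKO LV, against 182, 186, 189, 227 and 192 CPM in WT LV (-0.96 ± 0.24). In RV it had 62.5, 136, 76.2 and 89.1 CPM in cKO, against 212, 255 and 262 CPM in WT (-1.42 ± 0.22). The groups did not overlap for either subunit.

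Of the thioesterases, Acot13 was called lower in both ventricles and Acot2 in RV, while Acot1 was not called in either. Acot2, the mitochondrial enzyme, had 9.998, 61.2, 19.9 and 37.9 CPM in cKO LV, against 65.1, 53.1, 52.1, 60.9 and 44.8 CPM in WT LV (-0.78 ± 0.36, adjusted p = 0.103). Its RV values were 14.5, 46.9, 14.6 and 21.6 CPM in cKO, against 55.05, 71.4 and 52.3 CPM in WT (-1.29 ± 0.35, adjusted p = 0.012). Animal 180 reached the WT range in LV and fell short of it in RV. Acot1, the cytosolic enzyme, had 0.196, 2.29, 0.660 and 1.83 CPM in cKO LV, against 3.69, 3.07, 1.35, 1.53 and 2.48 CPM in WT LV. The RV libraries had 0.205, 1.16, 1.23 and 1.004 CPM in cKO, against 1.08, 5.34 and 2.51 CPM in WT (-1.72 ± 0.64, adjusted p = 0.0567). Acot1 is a near copy of Acot2 that lies near it on chromosome 12, so reads could be shared between them and the Acot1 values are uncertain.

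Among the regulatory members only Ppara was called. Ppara had 7.51, 34.8, 19.7 and 30.4 CPM in cKO LV, against 38.6, 50.5, 38.1, 36.8 and 43.8 CPM in WT LV (-0.85 ± 0.30, adjusted p = 0.0383). RV tissue had 8.88, 29.03, 17.8 and 19.9 CPM in cKO, against 36.6, 41.7 and 49.8 CPM in WT (-1.18 ± 0.30, adjusted p = 0.00931). All cKO libraries lay below WT. Pdk4, the pyruvate dehydrogenase kinase that fasting and PPAR agonists raise, separated the cKO animals instead. It had 55.4, 1073, 88.3 and 1433 CPM in cKO LV, against 259, 127, 117, 314 and 110.3 CPM in WT LV, and 77.6, 784, 75.3 and 598 CPM in cKO RV, against 132, 514 and 132 CPM in WT RV. Animals 180 and 264 were above every WT library and animals 177 and 257 below every WT library, in both ventricles. The log2 fold change was 1.84 ± 0.75 in LV (adjusted p = 0.0683) and 0.57 ± 0.81 in RV (adjusted p = 0.627). Ucp3, singled out after its values were seen, had 1.85, 56.5, 4.02 and 43.5 CPM in cKO LV, against 56.2, 17.1, 14.5, 44.8 and 12.9 CPM in WT LV, and 4.89, 37.3, 2.04 and 11.3 CPM in cKO RV, against 29.9, 80.7 and 15.4 CPM in WT RV. Its high and low cKO animals in LV were those of Pdk4.

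PPAR alpha binds DNA with a partner receptor at a direct repeat of the letters AGGTCA with a single base between the copies. The promoter windows of RefSeq (GRCm38.p6, 250 bases before to 50 after each start) covered 28 of the 33 members in 32 windows, and they were searched on both strands for AGGTCANAGGTCA with up to 2 mismatches. A match stood in 5 of the 32 member windows (15.6%) and in 3.86% of all 32851 windows. The shorter letters AAGGTCA, a longer form of a single copy that overlaps the repeat, stood in 1 member window (3.12%) and in 4.72% of all windows. A match describes letters and not binding. The 5 stretches are shown with 8 bases on each side of the match, 5′ to 3′ on the strand of the gene (the match itself may lie on either strand). The 13 positions of the match are in capitals, with the spacer and the mismatched bases among them. Each of the 5 has 2 mismatches, the most allowed. They are shown because no other match stood in the members' windows.
Cd36 (chr5:17835939-17835967, minus strand): tggttctcTGGCCTCTGACTTacttggat
Ucp3 (chr7:100472932-100472960, plus strand): tcagaattAGGTTTCAGGTCAgctggtgc
Echs1 (chr7:140116484-140116512, minus strand): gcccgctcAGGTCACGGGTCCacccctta
Etfa (chr9:55512300-55512328, minus strand): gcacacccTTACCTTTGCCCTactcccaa
Slc25a20 (chr9:108662134-108662162, plus strand): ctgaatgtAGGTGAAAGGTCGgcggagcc
Of these, Echs1, Etfa and Slc25a20 were called lower in both cKO ventricles, and Cd36 and Ucp3 were called in neither.

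The steps were then set side by side within each library, which removes the scaling between libraries. In cKO the median of the uptake genes Cd36, Fabp3 and Lpl stood above that of the beta-oxidation genes relative to WT. Fabp3 lay nearer to beta-oxidation than Cd36 and Lpl did. Its log2 fold changes were -0.76 in LV and -1.41 in RV, beside beta-oxidation medians of -1.10 and -1.57. Over members without a listed 0 (3 for uptake, 11 for beta-oxidation), the uptake median minus the beta-oxidation median, each taken relative to the WT mean, lay between 0.23 and 0.87 on the log2 scale in cKO LV (above 0 in 4 of 4) and between -0.06 and 0.07 in WT LV. In RV it lay between 0.59 and 0.75 in cKO (4 of 4) and between -0.10 and 0.06 in WT. At 3E13 it lay between 0.13 and 0.71 in LV and at 0.20 and 0.24 in RV, and at 6E13 between -0.04 and 0.13 in LV and between -0.08 and 0.25 in RV. The carnitine shuttle minus beta-oxidation lay between -0.17 and 0.36 in cKO LV and between -0.14 and 0.07 in WT LV. In RV it lay between 0.21 and 0.30 in cKO and between -0.08 and 0.08 in WT. The thioesterases minus beta-oxidation lay between -0.16 and 0.49 in cKO LV and between -0.12 and 0.13 in WT LV. In RV that difference lay between -0.04 and 0.44 in cKO and between -0.12 and 0.08 in WT. So the uptake difference was above that of every WT library in all 8 cKO libraries. The carnitine difference was so throughout cKO RV but not throughout cKO LV, and the thioesterase difference straddled 0. The 2 lipid droplet genes also stood above beta-oxidation in every cKO library. Their median was -1.96, 0.36, -0.88 and 0.18 in cKO LV, where beta-oxidation had -1.98, -0.51, -1.33 and -0.86. In cKO RV it was -1.81, 0.06, -1.24 and -0.64, where beta-oxidation had -2.26, -0.99, -1.63 and -1.59. These are descriptions of a few genes per step and carry no test. Cardiomyocyte, fibroblast and macrophage markers also differed in the cKO libraries (above), and their part in the step differences was not tested.

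**Figure D4:**
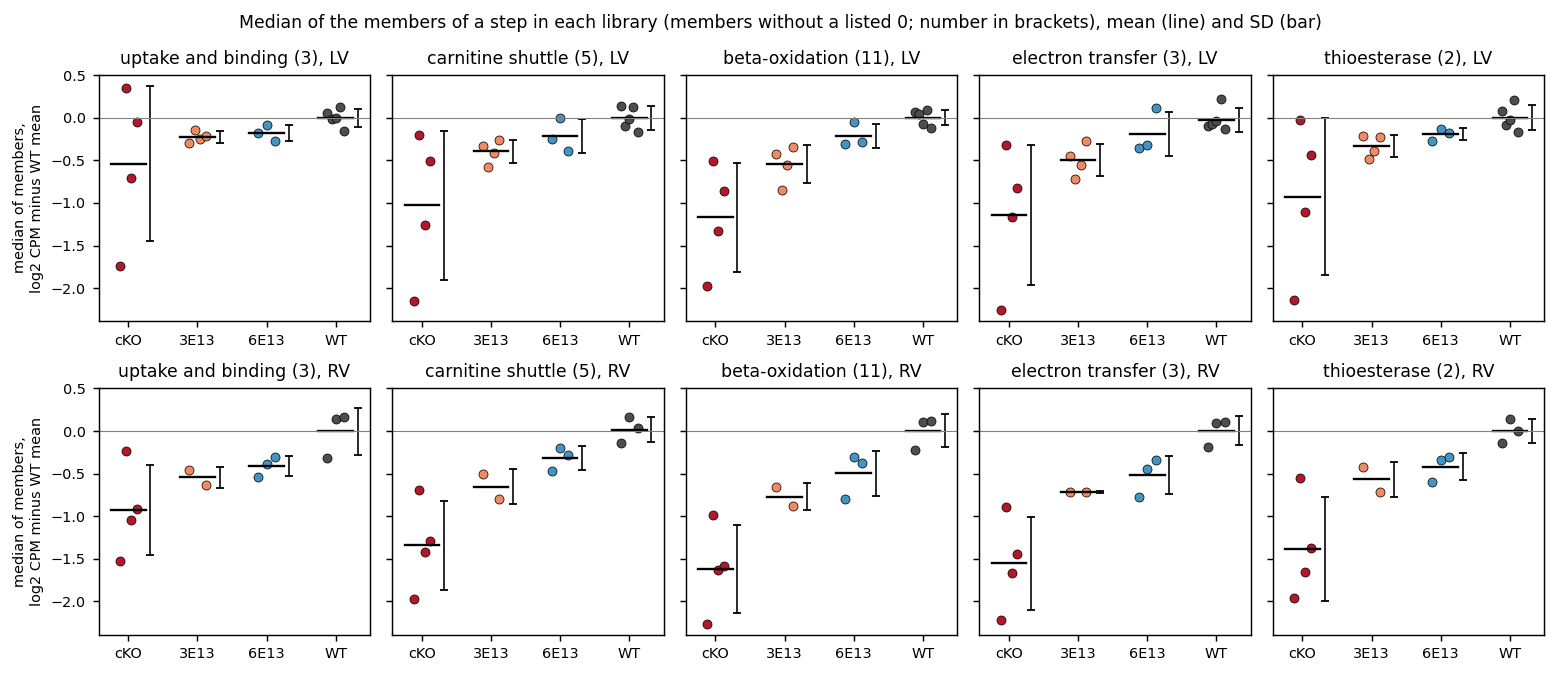
Median over the members of a step of log2 CPM minus the WT mean log2 CPM, in each library (points), with the group mean (line) and SD (bar); LV above, RV below, with members without a listed 0 only and their number in brackets. For each of the 5 steps plotted the mean of the cKO points is below 0 in both ventricles, and the means at 3E13 and 6E13 lie between those of cKO and WT.

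The next question was how far the pathway in vector-treated hearts stood from the cKO level; both doses were set against the same cKO libraries. At 3E13 in LV, 0 of 33 members were called against cKO, where 5.52% of all genes were called higher and 6.25% lower. An unadjusted p under 0.05 was found for 8 members and for 4738 of 16410 genes. DESeq2 called 2 members higher, where it called 1373 genes higher. The median log2 fold change was 0.40 (all genes -0.03). At 6E13 in LV, 7 members were called higher and 0 lower, where 8.65% of all genes were called higher and 8.16% lower: Cpt2, Acadvl, Acads, Hadh, Hadhb, Acaa2 and Decr1, with log2 fold changes between 0.71 and 1.08 and a median over all members of 0.61 (all genes -0.04). These LV counts rested on single libraries. At 3E13 the count was 10 without cKO animal 180, and at 6E13 it was 19 without cKO animal 180, 4 without cKO animal 257, 2 without 6E13 animal 250 or 645 and 0 without 6E13 animal 631.

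In RV, some members were called at both doses. At 3E13, 6 were called higher against cKO (Fabp3, Cpt2, Hadh, Hadhb, Etfb and Acot13, log2 fold changes between 0.87 and 1.35), where 4.77% of all genes were called higher. Another 2, Slc27a1 and Acot1, were called lower, where 3.83% of all genes were, but both were listed at 0 in both 3E13 RV libraries. At 6E13, 20 were called higher and 0 lower, where 11.2% of all genes were called higher and 10.9% lower, with log2 fold changes between 0.72 and 1.36. The 20 were Fabp3, Acsl1, Cpt1b, Cpt2, Slc25a20, 10 of the 12 beta-oxidation members, Etfa, Etfb, Etfdh, Acot13 and Ppara. The 6E13 and cKO libraries did not overlap for any of the 20, and 16.4% of all genes lay above cKO without overlap. The median over all members was 0.63 at 3E13 and 0.97 at 6E13, where the median of all genes was -0.03 and -0.04. The 3E13 RV count was 0 without 3E13 animal 181 or 253, 1 without cKO animal 264, 4 without cKO animal 257 and 19 without cKO animal 180. Scaled to the cardiomyocyte reference list, 1 member was higher and 1 lower at 6E13 in LV, where 0.92% of all genes were higher and 19.1% lower. Under this scaling 0 were higher and 2 lower at 3E13 in RV (0.272% and 1.78% of all genes), and 7 higher and 2 lower at 6E13 in RV (1.28% and 37.7% of all genes). The 6E13 RV count was 11 without 6E13 animal 645 and 12 without 6E13 animal 631. Fibroblast markers summed to between 1336 and 4056 CPM in 6E13 RV, against 5461 to 13670 CPM in cKO RV, and 8 of 9 were called lower; their part in the rise of the members was not tested.

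Uptake and activation genes in treated hearts were as follows. Fabp3 had 1526, 1117, 1369 and 1351 CPM at 3E13 and 1424, 1449 and 1272 CPM at 6E13 in LV, and 1579 and 1137 CPM at 3E13 and 1160, 1238 and 1350 CPM at 6E13 in RV. All treated RV libraries lay above all cKO RV libraries (at most 907 CPM), with log2 fold changes over cKO of 1.10 ± 0.26 at 3E13 (adjusted p = 0.0284) and 0.98 ± 0.23 at 6E13 (adjusted p = 0.0117). Acsl1 had 574, 475, 578 and 589 CPM at 3E13 and 632, 679 and 632 CPM at 6E13 in LV, and 509.8 and 454 CPM at 3E13 and 565, 644 and 712 CPM at 6E13 in RV. In RV the 6E13 libraries of Acsl1 lay above those of 3E13, which lay above those of cKO, and only 6E13 was called over cKO (1.17 ± 0.24, adjusted p = 0.00561). Slc27a1 had 8.13, 6.05, 3.97 and 8.13 CPM at 3E13 and 16.5, 11.3 and 15.03 CPM at 6E13 in LV, and 0 and 0 CPM at 3E13 and 16.4, 8.26 and 4.20 CPM at 6E13 in RV. Plin5 had 28.7, 17.6, 24.6 and 29.3 CPM at 3E13 and 23.5, 29.2 and 23.8 CPM at 6E13 in LV, and 22.1 and 19.5 CPM at 3E13 and 23.1, 31.2 and 26.7 CPM at 6E13 in RV. Pnpla2 had 155, 171, 164 and 169.9 CPM at 3E13 and 169.6, 189 and 159 CPM at 6E13 in LV, and 168 and 148 CPM at 3E13 and 158, 203 and 178 CPM at 6E13 in RV. Neither droplet gene was called over cKO, and for both the treated libraries lay within the range of the cKO libraries.

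Mitochondrial members of the treated hearts stood as follows. Cpt2 had 87.8, 44.4, 76.8 and 92.4 CPM at 3E13 and 98.1, 112 and 94.5 CPM at 6E13 in LV, and 85.6 and 74.7 CPM at 3E13 and 91.7, 109 and 110.2 CPM at 6E13 in RV. Over cKO its log2 fold change was 0.96 ± 0.26 at 6E13 in LV (adjusted p = 0.0227), and in RV 0.90 ± 0.20 at 3E13 (adjusted p = 0.0268) and 1.27 ± 0.18 at 6E13 (adjusted p = 0.000985). Every 6E13 library of Cpt2 lay above every cKO library of its ventricle. Acaa2 had 177, 125, 153 and 193 CPM at 3E13 and 204, 241 and 197 CPM at 6E13 in LV, and 181 and 145 CPM at 3E13 and 159, 238 and 224 CPM at 6E13 in RV. At 6E13 its log2 fold change over cKO was 1.08 ± 0.27 in LV (adjusted p = 0.0143) and 1.36 ± 0.31 in RV (adjusted p = 0.01). All 6E13 libraries of Acaa2 lay above cKO and below the lowest WT library, in both ventricles.

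The remaining shuttle and electron transfer members followed. Slc25a20 had 80.98, 57.4, 70.4 and 81.02 CPM at 3E13 and 85.6, 102 and 71.2 CPM at 6E13 in LV, and 84.05 and 58.3 CPM at 3E13 and 76.6, 93.3 and 81.6 CPM at 6E13 in RV. Cpt1b had 348, 304, 328 and 364 CPM at 3E13 and 403, 438 and 351 CPM at 6E13 in LV, and 336 and 292 CPM at 3E13 and 342, 411 and 389 CPM at 6E13 in RV. For Slc25a20 and Cpt1b only 6E13 in RV was called over cKO (1.03 ± 0.25 and 0.91 ± 0.22). Cpt1a had 57.04, 53.4, 54.8 and 54.4 CPM at 3E13 and 57.1, 63.1 and 56.6 CPM at 6E13 in LV, and 68.1 and 61.1 CPM at 3E13 and 57.01, 76.1 and 57.3 CPM at 6E13 in RV. None of its differences from cKO was called, and no treated library reached the level of cKO animals 180 and 264. Etfb had 95.5, 73.6, 91.8 and 122 CPM at 3E13 and 84.1, 71.2 and 149 CPM at 6E13 in LV, and 118 and 109 CPM at 3E13 and 95.9, 87.2 and 129.5 CPM at 6E13 in RV. Etfa had 134, 139, 127 and 162 CPM at 3E13 and 153, 155 and 210.1 CPM at 6E13 in LV, and 146 and 148 CPM at 3E13 and 137, 177 and 192 CPM at 6E13 in RV. Etfb was called over cKO in RV at both doses (1.34 ± 0.33 at 3E13 and 1.22 ± 0.30 at 6E13).

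**Figure D5:**
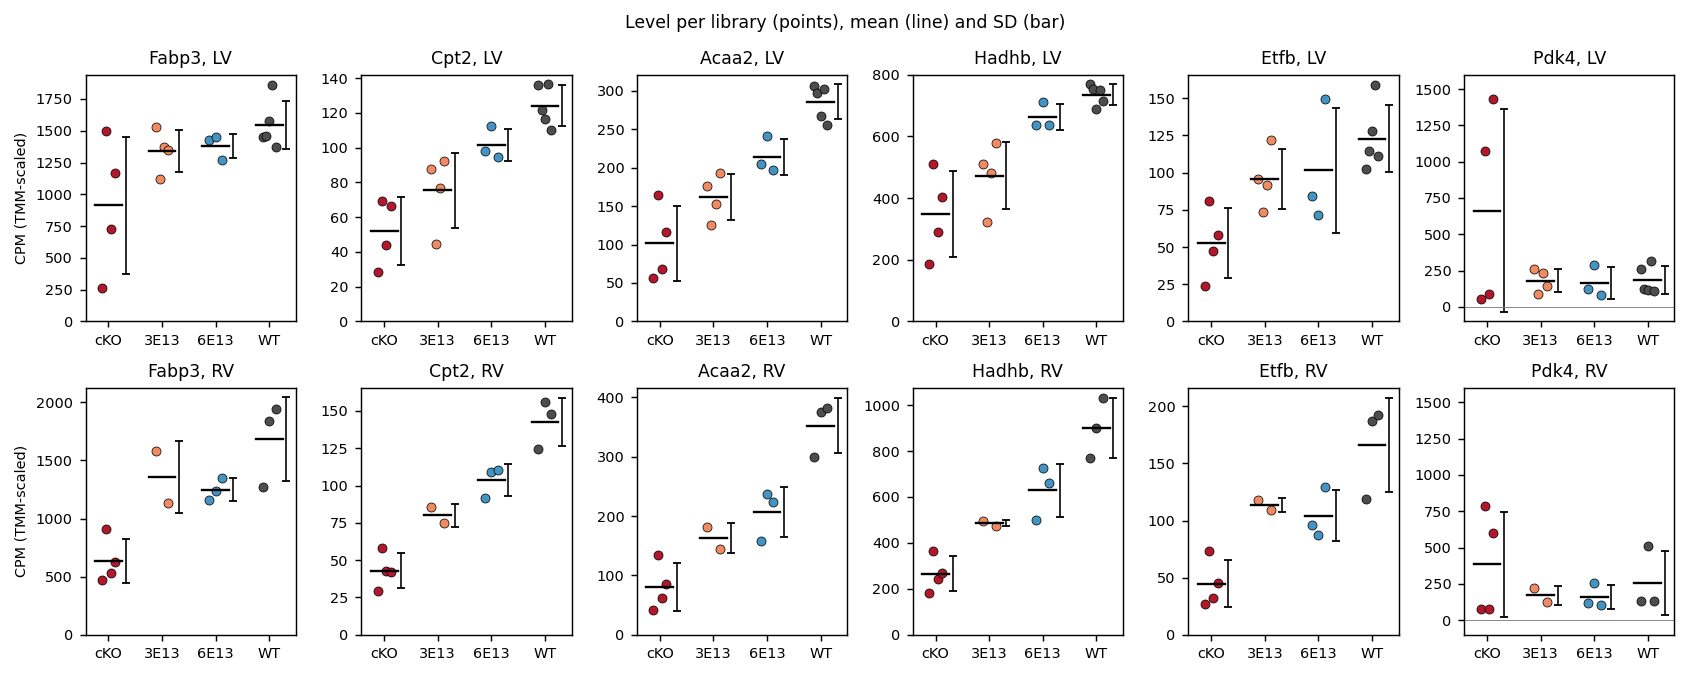
CPM of Fabp3, Cpt2, Acaa2, Hadhb, Etfb and Pdk4 in each library (points), with the group mean (line) and SD (bar), LV above and RV below. Cpt2 and Acaa2 at 6E13 lie above all cKO points in both ventricles, and Pdk4 in cKO splits into 2 high and 2 low animals in each ventricle.

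Hadhb had 509, 323, 480.4 and 578 CPM at 3E13 and 638, 710.2 and 638 CPM at 6E13 in LV, and 496 and 476 CPM at 3E13 and 501, 726 and 659.9 CPM at 6E13 in RV. It was called over cKO in RV at 3E13 (0.87 ± 0.24) and 6E13 (1.25 ± 0.21) and in LV at 6E13 (0.93 ± 0.25). Its partner Hadha was called only in RV at 6E13 (1.13 ± 0.24), with 0.82 ± 0.28 in LV at 6E13 (adjusted p = 0.0559). Acot2 had 46.2, 26.3, 35.9 and 43.4 CPM at 3E13 and 41.9, 49.9 and 41.7 CPM at 6E13 in LV, and 34.7 and 28.5 CPM at 3E13 and 35.5, 46.9 and 44.9 CPM at 6E13 in RV. Acot1 had 0.867, 1.26, 0.730 and 0.218 CPM at 3E13 and 1.95, 1.75 and 0.273 CPM at 6E13 in LV, and 0 and 0 CPM at 3E13 and 0.572, 1.11 and 1.32 CPM at 6E13 in RV. Of the thioesterases only Acot13 was called higher than cKO, at both doses in RV (1.04 ± 0.23 at 3E13 and 0.92 ± 0.20 at 6E13). Ppara had 25.8, 38.5, 25 and 32.4 CPM at 3E13 and 35.3, 31.6 and 36.5 CPM at 6E13 in LV, and 19.3 and 25.2 CPM at 3E13 and 31.4, 34.3 and 45.99 CPM at 6E13 in RV. It was called over cKO at 6E13 in RV (0.98 ± 0.30, adjusted p = 0.037). Pdk4 had 258, 88.3, 233 and 145 CPM at 3E13 and 124, 290.4 and 80.8 CPM at 6E13 in LV, and 219 and 126 CPM at 3E13 and 122, 253 and 106 CPM at 6E13 in RV. No treated library reached the 2 high cKO animals of its ventricle. Eci1 was listed at 0, 0, 19.4 and 0 CPM at 3E13 and 0, 17.5 and 0 CPM at 6E13 in LV, and at 0 in every treated RV library.

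Treated hearts were also set against WT. At 6E13, 0 of 33 members were called in LV, where 0.0853% of all genes were called, and 0 in RV, where 0.872% were. DESeq2 called 0 members in each ventricle, and 102 genes in LV and 626 in RV. An unadjusted p under 0.05 was found for 0 members and 1025 of 16410 genes in LV. In RV it was found for 7 members and 2098 of 17307 genes. The member medians were still below 0, at -0.21 in LV and -0.47 in RV, where all genes had a median of 0.01 and 0.00. All 6E13 libraries lay below all WT libraries for 6 of 33 members in LV, as did 4.05% of all genes. In RV they did so for 19 of 33 members and for 8% of all genes. At 3E13 in LV, 0 were called, where 2.5% of all genes were, and the median was -0.47. An unadjusted p under 0.05 was found for 9 members and 2716 of 16410 genes, and DESeq2 called 2 members and 982 genes. With only 3E13 and WT in the fit, 19 members were called lower, where 1776 genes were called in either direction. For 17 of the 33 members the 3E13 LV libraries all lay below the WT LV libraries, as did 6.26% of all genes, and none of the 17 was called. At 3E13 in RV, 3 were called lower, where 1.58% of all genes were: Cpt2 (-0.83 ± 0.23, adjusted p = 0.0474) and the listed zeros Slc27a1 and Acot1, with a median of -0.76 over all members. For 27 of the 33 members the 3E13 RV libraries lay below all WT RV libraries, as did 20.1% of all genes. DESeq2 called 13 members lower, where it called 2186 genes in either direction. The fit of only these groups called 23 lower, where it called 1850 genes in either direction. Without either 3E13 library of RV or any WT library the Cpt2 call was lost (adjusted p between 0.0559 and 0.289).

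The doses were also compared with each other, although their human PKP2 counts overlapped in both ventricles (above). In 6E13 against 3E13, 0 members were called in LV, where 0.0122% of all genes were called, and 0 in RV, where 0.0404% were. An unadjusted p under 0.05 was found for 1 member and 913 of 16410 genes in LV. In RV it was found for 2 members and 1497 of 17307 genes. DESeq2 called 0 members and 45 genes in LV, and 2 members and 256 genes in RV. The median log2 fold change of the members was 0.24 in LV and 0.28 in RV (all genes 0.00 and -0.01). The 2 RV members with an unadjusted p under 0.05 were Slc27a1 and Acot1, the ones listed at 0 in both 3E13 RV libraries.

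The last question was whether the ventricles differed. In WT, 0 members were called between RV and LV of the same 3 animals, where 0.00556% of all genes were called. An unadjusted p under 0.05 was found for 2 members and 1539 of 17981 genes. In cKO, 8 members were called lower in RV than in LV of the same 4 animals, where 4.08% of all genes were called: Cd36, Acadvl, Acads, Hadha, Hadhb, Acaa2, Decr1 and Acot13. Their log2 differences lay between -0.41 and -0.51, for example -0.50 ± 0.09 (SE) for Acadvl (adjusted p = 0.0126). The count was 0 without the animal as a replicate block, 0 by limma voom, 0 without animal 180 or 264, 4 without animal 257 and 26 without animal 177. In the test of whether the cKO effect differed between ventricles, 0 members were called, where 0.0111% of all genes were. An unadjusted p under 0.05 was found for 17 members and 1874 of 17981 genes. All 33 members had an estimate below 0 in this fit of paired animals, with a median of -0.48 (all genes -0.03), and that of Eci1 rests on libraries listed at 0. In the RV of cKO the atrial muscle gene Myl7 lay between 0.0386 and 87.9 CPM, against 0 to 0.640 CPM in WT RV. Without the 2 cKO RV libraries with the most Myl7 (animals 180 and 257), the 3E13 RV count against cKO was 19. Over the RV comparisons of cKO with WT and of each dose with cKO, 52 member calls were then kept. Only 1 was lost.

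Genes of the mitochondrial pathways that follow beta-oxidation were lower in cKO too. Citric acid cycle genes were lower for 13 of 15 in LV (median log2 fold change -0.86) and 15 of 15 in RV (-1.08), and respiratory chain genes of the nucleus for 24 of 25 in LV (-0.79) and 24 of 24 in RV (-1.27), beside -0.85 and -1.29 for the members. At 6E13 against cKO, citric acid cycle genes were called higher for 9 of 15 in LV and 11 of 15 in RV, and respiratory chain genes for 17 of 25 in LV and 23 of 24 in RV. Other fatty acid genes went both ways. Of 58 further pathway genes tested in LV, 22 were called lower and 7 higher in cKO against WT (median log2 fold change -0.21), and in RV 29 lower and 6 higher (-0.53). Other acyl-CoA and short-chain dehydrogenases were lower for 5 of 7 in LV and 7 of 7 in RV, among them Acad12 and Hsd17b10. Peroxisomal genes were lower for 3 of 10 in LV and 8 of 10 in RV, among them Hsd17b4 and Scp2. Further uptake genes split, with 3 higher and 3 lower of 9 in LV: Angptl4, which inhibits lipoprotein lipase, was higher at 15.5 ± 7.66 CPM in cKO LV and 2.97 ± 1.79 CPM in WT LV (SD, n = 4 and n = 5; log2 fold change 2.39 ± 0.56 SE, edgeR adjusted p = 0.00407), while Got2, which also aids uptake at the membrane, was lower (-0.75 ± 0.15). Among droplet genes, Plin2 was higher in LV (0.81 ± 0.16) and Abhd5, the activator of Pnpla2, lower (-0.47 ± 0.09). Among activation and carnitine genes Acsl4 was higher (0.74 ± 0.17) and Crat, carnitine acetyltransferase, lower (-1.10 ± 0.21). Of the regulators, Ppargc1b and Esrra, a coactivator and a nuclear receptor of mitochondrial genes, were lower (-1.06 ± 0.13 and -0.77 ± 0.12). At 6E13 against cKO, 9 of the 58 were called higher and 4 lower in LV, and 20 higher and 3 lower in RV.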

How the data were processed

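Bulk RNA from LV and RV was sequenced and quantified by the authors with Salmon 1.8.0 against GRCm39 transcripts and summed to genes with tximport. The deposited table holds estimated counts, the TPM values the authors derived from them, and, as another column set, the effective length of each gene. The labels give polyA RNA as the molecule and a ribosomal-depletion kit for total RNA. A row without a gene name (0.000352 to 0.000971% of counts) was left out. The labels name no batch. No columns lacked a sample.

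Estimated counts were rounded. Each ventricle was fitted with its 4 groups in one edgeR 4.0.16 quasi-likelihood model (R 4.3.3, TMM scaling, filterByExpr), with Benjamini-Hochberg adjustment over all genes tested. CPM values are TMM-scaled. The SE is the log2 fold change divided by the root of F. RV and LV were compared over the 24 libraries of the 12 animals with both (17981 genes), with the animal as a replicate block, because same-numbered libraries come from 1 animal (correlation of their deviations 0.335). The block is in the main design, and without it 0 members were called between ventricles in cKO, in place of 8. No 2 libraries of a group agreed within sampling noise. The procedure was tested on simulated data.

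The members and the other gene lists were chosen with earlier results of these data known. Genes given in every library were, per step, the 2 with the largest mean absolute log2 fold change of cKO against WT over both ventricles, any member higher in cKO and any called between a dose and WT. Cpt1b, Hadha, Hadhb, Ucp3, Cd36, Lpl and Acot13 were added after their values were seen. At most 2 genes of another list were named, those with the smallest adjusted p in LV. Alternatives were RLE scaling, no count filter, no mitochondrial genome genes, length offsets, scaling to cardiomyocyte genes, DESeq2 1.42.0, limma 3.58.1 on log2(TPM + 1), fits of only the groups compared, a sex covariate read from expression, leaving out the cKO RV libraries with most Myl7, and leaving out each library. Promoter sequences are RefSeq's, on GRCm38.p6, an earlier build than that of the counts.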

Additional observations from a re-analysis of the deposited data

Results flagged for a closer look

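In 7 of 132 sets of 4 or 5 libraries, 1 library stood apart from the others of its group, where chance alone gives about 5%. In 3E13 LV, animal 182 accounted for 3 of them. Its Acsl1 was lowest at 474.8 CPM (others 573.7 to 588.9 CPM), its Cd36 highest at 900.1 CPM (others 805 to 816.9 CPM) and its Lpl highest at 6126 CPM (others 3097 to 3469 CPM). Eci1 was above 0 in a single library of each of 3 LV groups, at 3.613 CPM in cKO animal 177, 19.37 CPM in 3E13 animal 252 and 17.82 CPM in WT animal 248, and was listed at 0 in the others of those groups. Etfa was highest in WT LV animal 637 at 226.7 CPM (others 181.8 to 191.6 CPM).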

How the results depend on the processing

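Called members kept their direction under the alternatives run, except Eci2 in cKO against WT in RV, at 0.10 on log2(TPM + 1). Counts of called members moved with the fit. Scaled to cardiomyocyte genes, which moved the median of all genes to 0.74 in LV and 0.94 in RV, members lower in cKO than in WT numbered 11 in LV, and members higher than cKO numbered 1 at 6E13 in LV, 0 at 3E13 in RV and 7 at 6E13 in RV. By limma on log2(TPM + 1), members lower in cKO than in WT numbered 11 in LV and 16 in RV. It called 7789 genes in LV, 7209 of them higher, and 10023 in RV, 9478 of them higher. Members higher than cKO numbered 2 at 6E13 in LV (246 genes higher), 1 at 3E13 in RV (142 genes) and 13 at 6E13 in RV (432 genes). In 3E13 against WT in RV it called 0 members and 544 genes. DESeq2 called 2 members at 3E13 and 12 at 6E13 higher than cKO in LV, where it called 1373 and 1744 genes higher. In RV it called 13 higher than cKO at 3E13, where 1326 genes were higher. Against WT it called 2 and 13 members lower at 3E13 in LV and RV, where it called 982 and 2186 genes. Between the doses in RV it called 2 members and 256 genes. With only the groups compared, the member counts are given with all genes called in either direction in brackets. In LV they were 12 for cKO against WT (4867), 0 for 6E13 against cKO (305) and 19 for 3E13 against WT (1776). In RV they were 0 for 3E13 against cKO (78), 23 for 3E13 against WT (1850) and 1 between the doses (82). For fits within a ventricle that left out libraries, calls over all genes were not counted. Without the 2 cKO RV libraries with most Myl7, 3E13 against cKO in RV gave 19. Leaving out 1 library gave 14 to 23 for cKO against WT in LV and 22 to 28 in RV, 0 to 10 and 0 to 19 for 3E13 and 6E13 against cKO in LV, 0 to 19 and 11 to 26 for them in RV, 0 to 1 for 3E13 against WT in RV, and 0 to 26 between ventricles in cKO. The RV and LV difference in cKO called 0 members without the replicate block and 0 by voom with the animal as a replicate block. The causes were not tested. With 2 libraries, 3E13 RV limits every comparison that uses it.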
